A study of Homo sapiens with 6 samples.

Results

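The kinesin family comprises the motor proteins that walk along or take apart microtubules, and its RNAs were examined here in SKOV3 cells, an established human epithelial ovarian cancer cell line. Members were all protein-coding genes whose symbol is KIF followed by a number, with or without a letter, or KIFC1, KIFC2 or KIFC3. This rule found 42 genes among the 58825 gene identifiers of the table. By their known main role, 14 were listed as mitotic kinesins, 17 as transport kinesins and 11 as other kinesins. The last list holds ciliary members and those with mixed or little known roles. Earlier results of these data were known when the lists were drawn up.

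SKOV3 cells were transfected with an siRNA against EIF5A2, a translation factor of the eIF5A family, or with a negative control siRNA (NC), and RNA was taken 48 hours later. Each group comprised 3 libraries, called NC 1 to 3 and si-EIF5A2 1 to 3. The knockdown was transient, in 1 cell line, with no untransfected group in the table. The labels do not state that the libraries came from separate cultures, so the p-values measure the spread between these samples, which may be technical.

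Kinesins share a motor domain that turns ATP hydrolysis into force on microtubules. Mitotic kinesins build and shorten the spindle, move chromosomes and close the midbody, and the RNA of many of them rises when cells approach division, often under promoters that hold a cell cycle genes homology region (CHR) together with CCAAT boxes. Transport kinesins carry vesicles, mitochondria, lysosomes and RNA along the microtubules of cells whether or not they divide.

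The stretches of promoter below show what the letters before the kinesin genes look like, with 5 mitotic members first and 3 transport members after them. They were picked after the matches were known, to show members with both motifs, with 1 of them and with neither. All come from RefSeq on GRCh38.p14 and are written 5′ to 3′ on the gene's own strand, and each ends at or shortly before the transcription start. Capitals mark the CHR letters, searched as TTTGAA and in a second form as TTCGAA, and the letters of the box named CCAAT, on either strand. A box on the other strand therefore reads ATTGG here, and the first CHR form on the other strand reads TTCAAA. The KIF11 stretch is chr10:92593010-92593129 (plus strand), KIF4A is chrX:70289984-70290103 (plus), KIF22 is chr16:29790624-29790743 (plus), KIF18B is chr17:44947774-44947893 (minus) and KIF2C is chr1:44739717-44739836 (plus). KIF1C is chr17:4997830-4997949 (plus), KIF3B is chr20:32277531-32277650 (plus) and KIF5B is chr10:32056426-32056545 (minus).
KIF11: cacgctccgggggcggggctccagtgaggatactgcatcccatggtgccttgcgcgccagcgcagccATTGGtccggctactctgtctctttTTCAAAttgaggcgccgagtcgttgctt
KIF4A: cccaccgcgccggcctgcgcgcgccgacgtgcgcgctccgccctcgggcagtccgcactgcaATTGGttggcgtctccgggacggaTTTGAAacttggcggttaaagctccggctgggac
KIF22: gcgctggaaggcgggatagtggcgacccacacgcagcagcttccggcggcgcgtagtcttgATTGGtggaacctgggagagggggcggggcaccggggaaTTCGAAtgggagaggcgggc
KIF18B: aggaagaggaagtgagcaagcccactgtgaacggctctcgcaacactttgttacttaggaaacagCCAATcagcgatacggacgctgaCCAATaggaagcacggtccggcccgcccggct
KIF2C: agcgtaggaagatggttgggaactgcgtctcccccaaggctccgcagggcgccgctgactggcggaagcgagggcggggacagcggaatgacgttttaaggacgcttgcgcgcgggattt
KIF1C: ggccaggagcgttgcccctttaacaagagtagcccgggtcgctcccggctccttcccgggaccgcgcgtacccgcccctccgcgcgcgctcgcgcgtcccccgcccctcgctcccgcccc
KIF3B: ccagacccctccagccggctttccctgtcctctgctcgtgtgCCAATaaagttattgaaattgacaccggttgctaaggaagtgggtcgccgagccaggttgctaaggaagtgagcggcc
KIF5B: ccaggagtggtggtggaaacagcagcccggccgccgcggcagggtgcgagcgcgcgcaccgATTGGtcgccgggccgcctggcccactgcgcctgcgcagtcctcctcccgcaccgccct

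The stretches of KIF11, KIF4A and KIF22 each held a CCAAT box followed by CHR letters closer to the start, KIF18B held a pair of CCAAT boxes, and KIF2C held neither. Those of KIF3B and KIF5B held 1 CCAAT box each and that of KIF1C none. The counts over all members are given after the expression values.

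Total counts ranged from 46900204 to 74142267 per library. The counts moved in steps of 3.68 to 3.71, so that 1 sequenced fragment stands for several counts and the depth corresponds to about 12692883 to 20065566 fragments. A level is given as CPM (counts scaled to a common library total). For every level, the library total was that of the genes tested, corrected with the TMM factor of edgeR. A count of 0 allows a level of up to 0.152 to 0.236 CPM (3 fragments), a limit that covers counting error only. EIF5A2 itself stood at 27.8, 29.8 and 29.9 CPM in NC and at 2.76, 4.04 and 4.27 CPM in si-EIF5A2, which is 12.7% of the NC mean. In SKOV3, the epithelial genes KRT8 and KRT18 were high, EPCAM was low at 1.55 CPM in NC, and the leukocyte genes PTPRC and CD3E had no count. Of 7 genes listed for SKOV3, 3 were called lower, KRT7, KRT8 and PAX8. The endothelial gene CDH5 fell from 28.3 to 0.833 CPM, PECAM1 was at 1.87 and 0.318 CPM, and CD14 and ALB were under the limit of a count of 0. The part of these genes in the results on kinesins was not tested.

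A gene was called changed when the quasi-likelihood test of edgeR gave a Benjamini-Hochberg adjusted p under 0.05 over the 16208 genes tested and the fitted change was over 1.5-fold. Of the 42 kinesins, 34 had enough counts to be tested. Of these, 16 were called lower and 4 higher in the si-EIF5A2 libraries. That is 58.8% of the tested kinesins, against 24.6% of all genes tested. The lower calls made up 47.1% of them, against 13.6% of all genes tested, and 11.1% of all genes were called higher. Because the filter keeps genes through either group, these counts describe the tested members and not the family as a whole.

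The lower calls lay mostly among the mitotic kinesins. Of the 14 mitotic members 13 were tested, and 12 of these were called lower (92.3%, beside 13.6% of all genes tested). As the list was drawn up with earlier results of these data known, this share is a description. These 12 were left at between 5.23% and 18.5% of their NC mean. Their adjusted p-values (edgeR quasi-likelihood test, Benjamini-Hochberg) ran from 4.44e-06 to 1.91e-04. The median log2 fold change of the 13 mitotic members tested was -2.98, beside -0.01 for all genes tested. The 15 transport members tested had a median of 0.47, with 3 called higher and 2 called lower. That is 33.3% called, beside 24.6% of all genes tested, and 13.3% called lower, near the 13.6% of all genes tested. RNA from a whole culture was measured, so fewer dividing cells and less RNA in each dividing cell cannot be told apart.

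**Figure D1:**
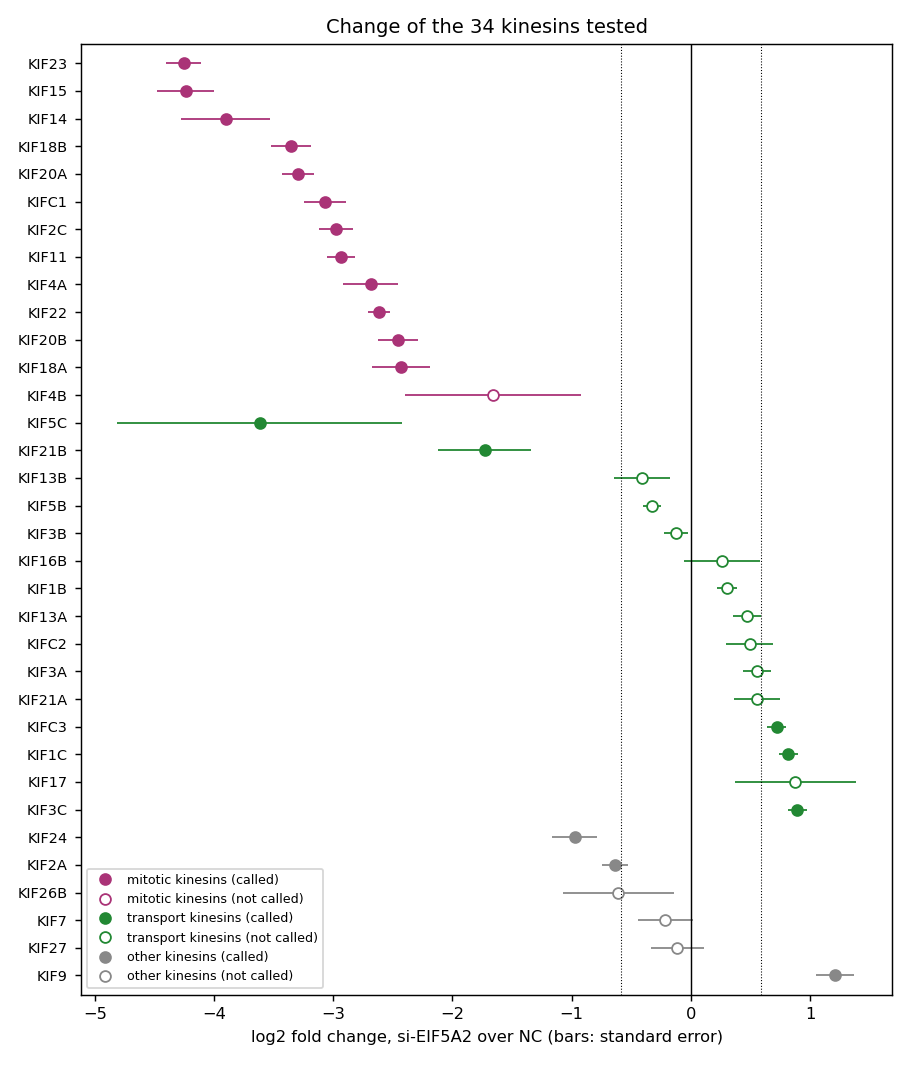
Log2 fold change of si-EIF5A2 over NC (horizontal axis) for the 34 kinesins tested, with bars of 1 standard error, in the order of the mitotic, transport and other lists. Filled points were called (adjusted p under 0.05 and over 1.5-fold, dotted lines); the filled mitotic points lie between -4.25 and -2.43, and the best measured transport members lie on both sides of 0.

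The motors that separate the spindle poles come first. KIF11 (Eg5), the tetrameric motor that slides antiparallel microtubules apart, was measured at 34.7, 35.1 and 38.9 CPM in NC and at 4.34, 5.04 and 4.84 CPM in si-EIF5A2. The groups were far apart, and the spread within each was small, at 36.2 ± 2.35 and 4.74 ± 0.358 CPM (SD, n = 3). The fitted log2 fold change was -2.93 with a standard error of 0.12. KIF15, which supports KIF11 in holding a bipolar spindle, was at 8.84, 10.5 and 11.9 CPM in NC and at 0.411, 0.575 and 0.667 CPM in si-EIF5A2. Its log2 fold change was -4.24 ± 0.24 (SE), and 5.29% of the NC level remained. KIFC1 (HSET), a minus-end-directed motor that bundles spindle poles, was at 79.3, 82.4 and 83.4 CPM in NC and at 7.10, 11.04 and 11.1 CPM in si-EIF5A2. Its log2 fold change was -3.07 ± 0.18 (SE). All 3 of these motors were lower in every si-EIF5A2 library than in any NC library.

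Among the motors of chromosome arms and kinetochores, KIF2C (MCAK), which removes tubulin from microtubule ends, had the highest level per length of the mitotic members. It was at 134, 135 and 157 CPM in NC and at 16.1, 21.8 and 16.3 CPM in si-EIF5A2, with a log2 fold change of -2.98 ± 0.14 (SE). KIF18A, which dampens chromosome movement at the metaphase plate, was at 12.5, 13.8 and 17.5 CPM in NC and at 2.80, 1.92 and 3.42 CPM in si-EIF5A2. It kept 18.5% of its NC level, with a log2 fold change of -2.43 ± 0.24 (SE). Its relative KIF18B, which works on astral microtubules, was at 55.8, 49.4 and 55.8 CPM in NC and at 4.01, 6.13 and 5.57 CPM in si-EIF5A2. The log2 fold change of KIF18B was -3.36 ± 0.17 (SE), and its groups did not overlap. KIF22 (Kid), a chromokinesin that pushes chromosome arms toward the spindle equator, was at 75.2, 77.9 and 80.0 CPM in NC and at 12.8, 13.4 and 11.8 CPM in si-EIF5A2. With a standard error of 0.09 around -2.61 it was among the most precisely measured members.

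KIF4A, a chromokinesin that also limits the length of the central spindle, was at 31.7, 33.4 and 43.0 CPM in NC and at 4.03, 7.17 and 5.63 CPM in si-EIF5A2. The fitted log2 fold change of KIF4A was -2.68 ± 0.23 (SE). On the opposite strand 1.70% of its exon bases lie in PDZD11, which had 29136 counts over all libraries against 7555 for KIF4A. KIF4B, an intronless relative on chromosome 5, had 0.573 CPM in the NC group against 0.180 CPM after knockdown, and was not called (log2 fold change -1.66, adjusted p = 0.119 by edgeR). Of the 100-base windows of KIF4B, 2.10% occur in KIF4A, and of its 20-base windows 42.9%, so part of the KIF4B count may come from KIF4A reads and its value is uncertain. KIF2B, a relative of KIF2C, had no count in any library.

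The motors of cytokinesis follow. KIF23 (MKLP1), the motor subunit of centralspindlin at the midzone and midbody, was at 30.4, 34.3 and 37.3 CPM in NC and at 1.98, 1.59 and 1.77 CPM in si-EIF5A2. It was left at 5.23% of its NC level, with a log2 fold change of -4.25 ± 0.15 (SE) and an adjusted p of 4.44e-06 (edgeR). Of its exon bases 3.51% overlap the antisense gene KIF23-AS1, which was at 0.191 CPM in NC. KIF20A (MKLP2), which brings the chromosomal passenger complex to the midzone, was at 87.1, 104 and 104 CPM in NC and at 11.5, 9.71 and 8.90 CPM in si-EIF5A2. For KIF20A this was a log2 fold change of -3.30 ± 0.13 (SE). On the opposite strand its exons overlap BRD8 (3.3% of bases) and CDC23 (1.72%). These had 11882 and 14644 counts over all libraries, against 20164 for KIF20A. KIF20B (MPP1), which acts in the completion of cytokinesis, was at 11.6, 13.8 and 11.8 CPM in NC and at 2.03, 2.15 and 2.61 CPM in si-EIF5A2. The level of KIF20B was lower in all 3 knockdown libraries, with a log2 fold change of -2.46 ± 0.17 (SE). KIF14, which binds citron kinase and PRC1 at the midbody, was at 10.3, 10.02 and 12.7 CPM in NC and at 0.998, 0.862 and 0.334 CPM in si-EIF5A2. Its level in si-EIF5A2 3 was lower than in the other libraries of that group, and its standard error of 0.37 around -3.90 was the largest of the called mitotic members. The log2 fold changes of KIF23, KIF15 and KIF14 lay within about 1 standard error of each other, so no order among these 3 is given.

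**Figure D2:**
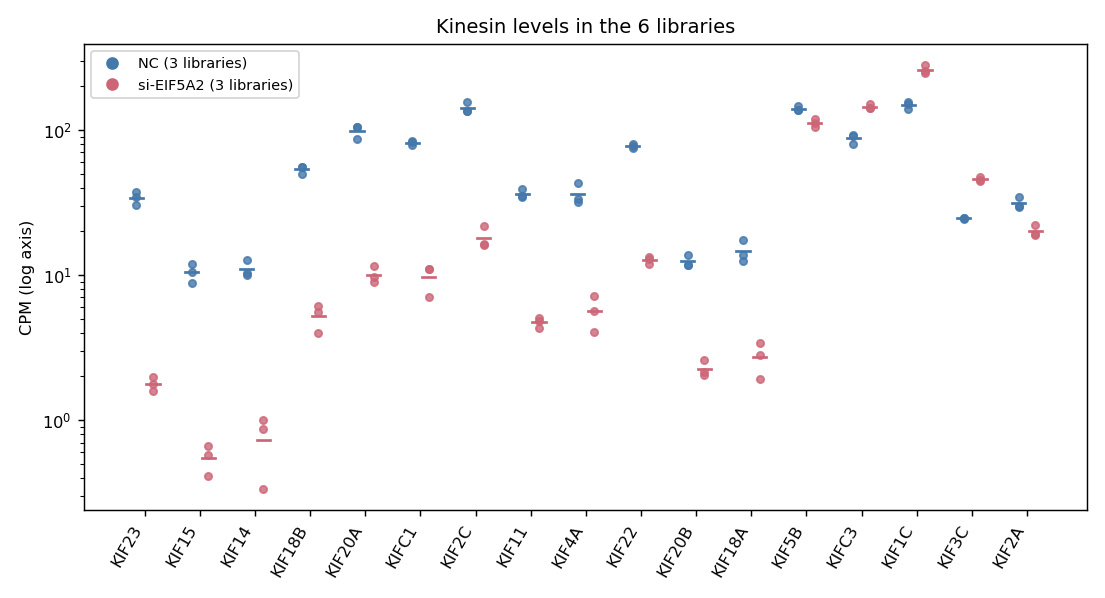
CPM (vertical log axis) in each of the 6 libraries for the 16 called kinesins with a mean of at least 10 CPM in either group and for KIF5B, with points for libraries and short lines for means. The NC and si-EIF5A2 points of the 12 mitotic members do not overlap, while KIF1C, KIF3C and KIFC3 lie higher in all 3 si-EIF5A2 libraries.

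Other genes of dividing cells fell as well. A list of 12 division markers, MKI67 and the cyclin B genes among them, had 12 genes called lower and a median log2 fold change of -2.84, from -3.65 to -2.04. Among 12 mitotic partners of kinesins, 11 were called lower and none higher, with a median of -2.11. Called lower were thus 100% of the markers and 91.7% of the partners, beside 13.6% of all genes tested. Both lists were drawn up with earlier results of these data known. CIT, the citron kinase that binds KIF14, fell from 34.8 ± 4.96 to 3.14 ± 0.0312 CPM (SD, n = 3), a log2 fold change of -3.47. TPX2, which targets spindle motors and activates Aurora A, fell from 324 ± 31.5 to 42.1 ± 1.33 CPM, by 2.94 on the log2 scale. CENPE, the kinetochore motor of the kinesin-7 family whose symbol lies outside the naming rule, fell from 8.89 ± 0.608 to 1.81 ± 0.363 CPM, by 2.30 on the log2 scale. RACGAP1, the other centralspindlin subunit, was looked at after its values were seen; its log2 fold change of -2.39 ± 0.17 (SE) compared with -4.25 ± 0.15 for KIF23. MAPRE1, a tip-tracking protein of all growing microtubules, had 173 CPM in the NC group against 213 CPM after knockdown, and was not called. How far the share of dividing cells sets these values was not tested.

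The transport kinesins did not move together. Of the 15 tested, 10 had a positive log2 fold change, and 11 had groups that did not overlap, a pattern seen in 51.2% of all genes tested. KIF1C, a kinesin-3 motor of vesicles and of integrin and RNA transport, was at 150, 155 and 139 CPM in NC and at 247, 280 and 257 CPM in si-EIF5A2. It rose 1.76-fold, with a log2 fold change of 0.82 ± 0.08 (SE) and an adjusted p of 1.59e-04 (edgeR). KIFC3, a minus-end-directed motor linked to the Golgi and to cell junctions, was at 80.2, 91.5 and 91.8 CPM in NC and at 141, 151 and 142 CPM in si-EIF5A2. The 3 knockdown libraries lay close together and above all NC libraries, with a log2 fold change of 0.72 ± 0.08 (SE). KIF3C, an alternative motor subunit of kinesin-2, was at 24.3, 24.6 and 24.9 CPM in NC and at 45.2, 47.4 and 44.4 CPM in si-EIF5A2. Its log2 fold change of 0.89 ± 0.08 (SE) was close to that of KIF1C, and within each group its 3 libraries lay close together.

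KIF5B, the ubiquitous heavy chain of conventional kinesin-1, was at 137, 138 and 147 CPM in NC and at 112, 105 and 120 CPM in si-EIF5A2. The groups did not overlap and the adjusted p was 0.0118 (edgeR), but the log2 fold change of -0.32 ± 0.08 (SE) was under the fold limit, so it was not called. KIF1B (0.30), KIF13A (0.47) and KIF3A (0.56) likewise had adjusted p-values of 0.0202, 0.0145 and 0.0067 (edgeR) with log2 fold changes under the limit of 1.5-fold. KIF3B, the usual partner of KIF3A in kinesin-2, was at 63.9 ± 6.001 CPM against 58.5 ± 4.68 CPM, and these groups overlapped. The other transport members that were tested but not called, KIF13B, KIF16B, KIF17, KIF21A and KIFC2, had log2 fold changes between -0.41 and 0.88 with adjusted p-values from 0.0555 to 0.575 (edgeR).

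The 2 transport members called lower had NC means under 10 CPM, and neither call held in every alternative. KIF21B, a kinesin-4 that pauses microtubule growth, was at 9.36 ± 4.96 CPM with NC and 2.82 ± 0.704 CPM with knockdown (SD, n = 3), with a log2 fold change of -1.73 ± 0.39 (SE) and an adjusted p of 0.0127 (edgeR). NC 2 stood at 15.1 CPM and the other NC libraries at 6.32 and 6.68 CPM, and without NC 2 the log2 fold change was -1.20. Without si-EIF5A2 1 its adjusted p was 0.0506 (edgeR), past the threshold. KIF5C, a neuronal kinesin-1 heavy chain, had 28, 58 and 38 counts in NC and 8, 0 and 0 counts in si-EIF5A2, which is a handful of fragments. Its adjusted p of 0.0465 (edgeR) rose above 0.05 in 7 of 12 alternatives, 0.132 without NC 2 among them, so its call rests on little. KIF1A and KIF5A, both mainly neuronal, had too few counts to be tested.

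Among the other kinesins, 6 of 11 were tested. KIF2A, a depolymerising motor with roles both in spindles and in resting cells, was at 29.8, 34.4 and 29.4 CPM in NC and at 22.3, 18.9 and 19.0 CPM in si-EIF5A2. Its log2 fold change of -0.64 ± 0.11 (SE) was called lower, and without NC 2 it was -0.56, under the fold limit. On the same strand, 8.96% of the exon bases of KIF2A lie in exons of IPO11, whose own log2 fold change was 0.58. KIF24, which restrains the growth of cilia and removes tubulin from centriolar microtubules, fell from 8.90 ± 0.978 to 4.52 ± 0.875 CPM (SD, n = 3), by 0.98 on the log2 scale. On the opposite strand 2.33% of its exon bases lie in UBAP1, whose log2 fold change was 0.25. KIF9, a motor of motile cilia, rose from 3.47 ± 0.410 to 8.03 ± 0.599 CPM, with a log2 fold change of 1.21 ± 0.16 (SE). On the opposite strand its exons overlap those of the antisense gene KIF9-AS1 (14.9% of bases) and the protein-coding gene KLHL18 (3.04%). The strand setting of the counts is not stated. KIF9-AS1 had a log2 fold change of -0.02 and KLHL18 of 0.41. KIF7, KIF26B and KIF27 were not called, with log2 fold changes of -0.21, -0.61 and -0.11. On the opposite strand 11.8% of the exon bases of KIF7 lie in TICRR, which was called lower with a log2 fold change of -1.17. KIF6 had too few counts to be tested, and KIF12, KIF19, KIF25 and KIF26A had none in any library.

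Summed over each list, the mitotic part of the kinesin RNA was lower in the si-EIF5A2 libraries and the transport part higher, with no overlap between the groups. Mitotic kinesins added up to 572, 601 and 654 CPM in NC and to 68.4, 81.4 and 73.1 CPM in si-EIF5A2. Transport kinesins added up to 572, 596 and 599 CPM in NC and to 761, 774 and 769 CPM in si-EIF5A2. The largest rises in the transport sum were those of KIF1C (mean 148 to 261 CPM) and KIFC3 (87.8 to 145 CPM). Of the 15 transport members tested, 5 had a negative log2 fold change, KIF5B (141 to 112 CPM) among them. The family total was 1258 ± 57.2 CPM for NC and 889 ± 12.2 CPM for si-EIF5A2 (SD, n = 3). The rise in the transport sum was smaller than the fall in the mitotic sum. The mitotic share of the total was 47.8%, 47.5% and 49.8% in NC 1, 2 and 3, and 7.78%, 9.01% and 8.26% in si-EIF5A2 1, 2 and 3. Divided by gene length, so that long genes do not weigh more, the share was 62.9% ± 1.07 in NC and 14.5% ± 1.03 in si-EIF5A2.

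**Figure D3:**
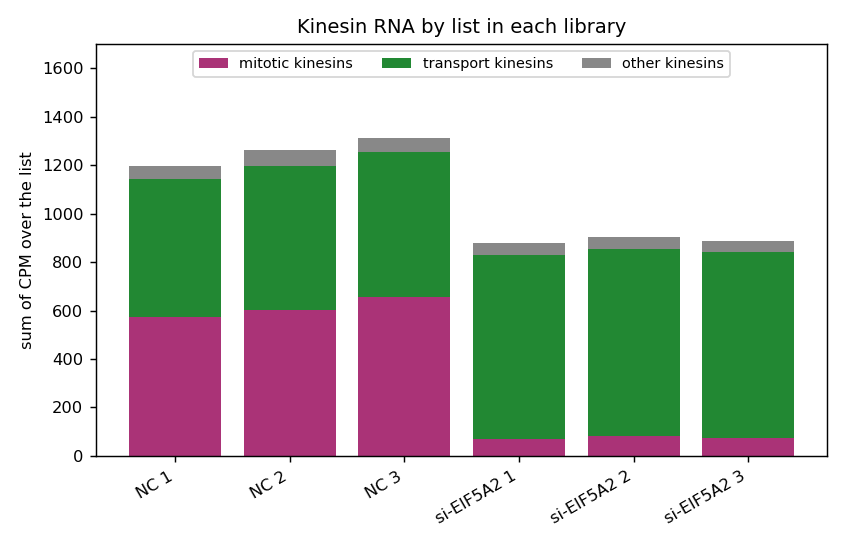
Sum of CPM (vertical axis) over the mitotic, transport and other kinesins, stacked, in each of the 6 libraries. The mitotic part shrinks from 572 to 654 CPM in NC to 68.4 to 81.4 CPM in si-EIF5A2, while the transport part is taller in every si-EIF5A2 library.

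Levels of different genes were compared per length, as CPM per kilobase of each gene's longest principal transcript in GENCODE. In NC the highest were KIF2C at 49.4 ± 4.47, KIF22 at 36.8 ± 1.15, KIF20A at 30.8 ± 3.08 and KIFC1 at 30.2 ± 0.781 CPM per kilobase (SD, n = 3). KIF20A and KIFC1 did not differ beyond their spread. The highest transport members in NC were KIFC3 at 25.6 ± 1.94, KIF5B at 23.9 ± 0.920 and KIF1C at 18.7 ± 1.05 CPM per kilobase, and the spreads of KIFC3 and KIF5B overlapped. In si-EIF5A2 the order began with KIFC3 at 42.2 ± 1.55, KIF1C at 33.0 ± 2.11 and KIF5B at 19.1 ± 1.23 CPM per kilobase, with KIF2C at 6.27 ± 1.12 in place 8. These orders depend on the length used. With the length of all exons together, NC began with KIF2C at 39.0, KIF20A at 24.9, KIFC1 at 24.4 and KIF5B at 23.9 CPM per kilobase. KIF22 then stood at 18.0 and KIFC3 at 9.15 CPM per kilobase, below KIF5B, KIF1C (17.3) and KIF3B (10.5). In si-EIF5A2 the leading 3 were the same genes, with KIF1C ahead of KIF5B and KIFC3.

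**Figure D4:**
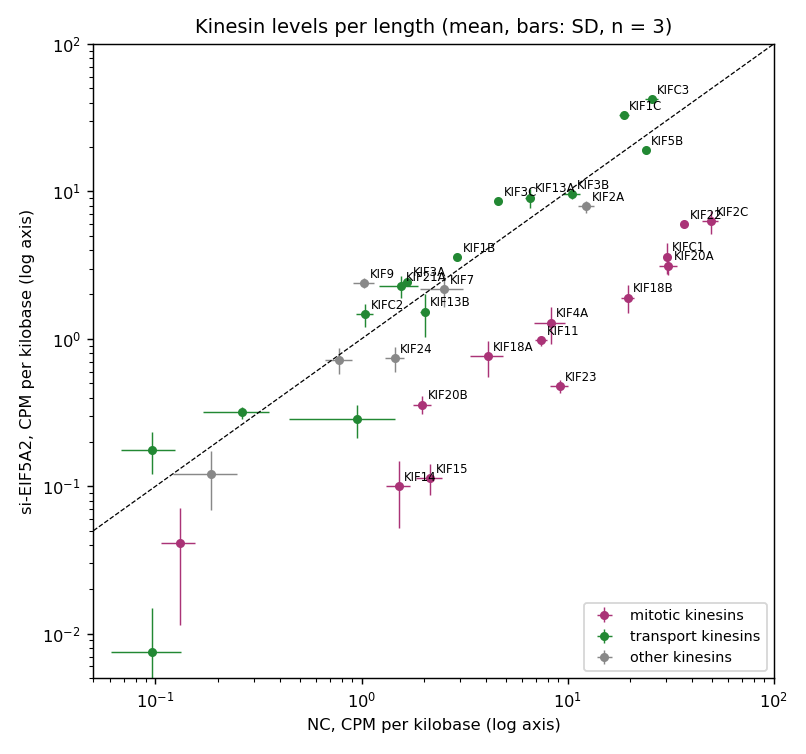
Mean CPM per kilobase in NC (horizontal log axis) against si-EIF5A2 (vertical log axis) for the 34 kinesins tested, with bars of 1 SD (n = 3) that are cut at the axis where they reach 0; points on the dashed line have equal levels. The mitotic members lie below the line and KIFC3, KIF1C and KIF3C above it.

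Ratios between related motors do not depend on the scaling of a library. Of 10 planned pairs 9 had counts, and with 3 against 3 libraries the smallest p an exact two-sided permutation test can give is 0.10. The ratio of KIF2C to KIF2A was 4.56 in NC and 0.893 in si-EIF5A2. The ratio of KIFC1 to KIFC3, the minus-end-directed pair, was 0.932 in NC and 0.066 in si-EIF5A2, and that of KIF14 to KIF1B was 0.353 and 0.0172. KIF20A to KIF20B went from 7.93 to 4.44, so a pair of mitotic relatives also changed in its ratio. The ratio of KIF21A to KIF21B was 1.17 and 5.39, KIF13A to KIF13B 2.20 and 4.18, and KIF3A to KIF3B 0.165 and 0.264, while KIF1B to KIF1C was 0.210 and 0.147. In these 8 pairs the groups did not overlap, with an exact permutation p of 0.10 each (0.1125 adjusted over 9 pairs), the smallest possible. KIF18A to KIF18B was at 0.270 and 0.512 with overlapping groups, an exact permutation p of 0.20.

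Proteins that link transport kinesins to cargo, and the opposing motor dynein, were read from lists drawn up by known function. Earlier results of these data were known for these lists too. Of 15 light chains and adaptors 14 were tested, 2 were called higher and 2 lower, and the median log2 fold change was 0.22. That is 28.6% called, near the 24.6% of all genes tested. SPAG9 (JIP4), an adaptor of kinesin-1 and dynein, rose from 91.7 ± 5.94 to 151 ± 5.52 CPM (SD, n = 3), a log2 fold change of 0.72. TRAK2, which couples mitochondria to kinesin and dynein, fell from 52.3 ± 3.10 to 16.5 ± 2.88 CPM, by 1.66 on the log2 scale, and the kinesin light chain KLC4 from 13.7 ± 1.52 to 7.90 ± 0.755 CPM, by 0.80. KLC1, a light chain of kinesin-1, was at 125 and 138 CPM with overlapping groups. Of 11 cytoplasmic dynein 1 subunits 10 were tested, with 3 called higher and none lower (30% called, beside 24.6% of all genes tested), and a median of 0.40. The light chains DYNLL2 and DYNLT3 rose, with log2 fold changes of 1.08 and 0.83. The heavy chain DYNC1H1 was at 526 ± 4.91 CPM against 607 ± 71.4 CPM and was not called (adjusted p = 0.119 by edgeR).

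The promoters were searched in windows from 250 bases before to 50 bases after each RefSeq start, on both strands. All 14 mitotic members had a window. Their matches are a description of letters and not of bound sites. CHR letters in either form were found for 11 of the 14 mitotic genes (78.6%), against 15.6% of the 11171 tested genes with a window and 19.5% of all 27305 genes in the table. CCAAT was found for 11 of 14 (78.6%), against 42.9% of the tested genes. Both together were found for 10 of 14 (71.4%), against 6.56% of the tested genes and 7.85% of all genes. Of the tested genes, fewer than 80% had a window, so their shares describe only those with one. Letters of E2F sites, searched as TTCCCGC, as the close variant TTGGCGC, and in the longer forms TTTCGCGC and GGCGGGAA, were found for 3 of 14 mitotic genes, against 18.2% of the tested genes. The last E2F form holds the first on its other strand and so adds no gene, and the second can share letters with a CCAAT box. A window in which the searched letters were not found says nothing more than that.

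Among the mitotic genes, KIF11 had its CCAAT box beginning 53 bases and its CHR letters 28 bases before the start. KIF4A had them 58 and 34 bases before the start, and KIF22 66 and 27 bases before it. In KIF23 they began 64 and 55 bases before the start. KIF18B had CHR letters just inside the gene, from base 3 after the start, outside the stretch printed above. KIF2C, KIF20A and KIF2B had no CHR letters in the window, and KIF4B had 1 match.

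**Figure D5:**
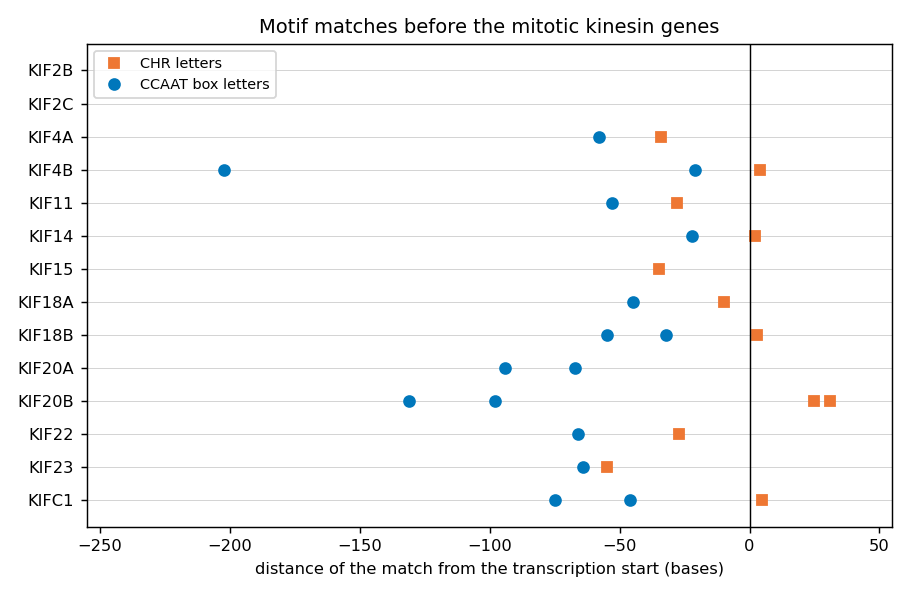
Distance from the RefSeq transcription start in bases (horizontal axis, negative before the start) of CHR and CCAAT matches on either strand in the windows of the 14 mitotic kinesin genes, with 1 window shown for KIF22. In KIF4A, KIF11, KIF18A, KIF22 and KIF23 a CCAAT box lies before the CHR letters and both lie before the start.

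Of the 17 transport genes only 12 had a window, under 80%, so a share over that list is void. By count, CHR letters were found for 1 of these 12, KIF5B, where they began 140 bases before the start, outside the stretch printed above. CCAAT was found for 4 of the 12. KIF1C and KIF3C had neither motif in their windows. Of 8 other kinesins with a window, 1 had CHR letters, KIF24.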

How the data were processed

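RNA-seq of 6 SKOV3 libraries, 3 NC and 3 si-EIF5A2, was analysed 48 h after transfection. The deposited table holds an estimated count per Ensembl gene and library, made by the authors from paired-end reads of 150 bases. The methods name StringTie and ballgown for estimating expression as FPKM, and how the count table was made is not given in the sources used here. The processing notes of the submitters also name Bowtie 0.12.2 and the mouse builds mm8 and mm9, although the identifiers are human; the human build, the aligner settings and the strand setting are not given in the sources used here. All counts were whole numbers that moved in steps of about 3.7, the total per library was 46900204 to 74142267, and the precision of scarce members is set by fragments and not by counts. Steps larger than 1 make low counts look more precise than they are, which was tried as an alternative.

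Symbols came from a gene name table, and gene types, positions and lengths from GENCODE 29 on GRCh38. Members and lists were chosen with earlier results of these data known. The counts were tested with edgeR 4.0.16 (filterByExpr, TMM, quasi-likelihood F-test, R 4.3.3) over 16208 genes with Benjamini-Hochberg adjustment, and the script was tested on simulated data. All kinesins were named or counted. Values in every library are given for called members with a mean of at least 10 CPM in a group and for KIF5B, KIF11, KIF20A and KIF23. Of each partner list, the 2 largest rises and 2 largest falls that were called are named, with CENPE, KLC1 and DYNC1H1. Some genes that this rule or the lists hold are not reported here. Alternatives were DESeq2 1.42.0, other scalings, filters and thresholds, a replicate block, and leaving out each library. Promoter windows were taken from RefSeq (GRCh38.p14) for 34 of 42 members. A search of protein sequences was planned and not run, because no protein table was used here.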

Additional observations from a re-analysis of the deposited data

How the results depend on the processing

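The 12 mitotic calls held in all 14 alternatives run for each of them, with adjusted p-values (edgeR or DESeq2) of at most 0.00248. Of the 20 called kinesins, 17 kept their call in every such alternative, and the exceptions were KIF5C, KIF21B and KIF2A. These alternatives kept the thresholds of a call, and other thresholds are given separately below. KIF1C (0.82), KIF3C (0.89), KIFC3 (0.72), KIF24 (-0.98) and KIF2A (-0.64) had log2 fold changes under a 2-fold limit and were not called with it. No called kinesin changed direction; of the members not called, KIF27 (-0.11) was at 0.03 without si-EIF5A2 2. The count of transport kinesins called lower was 1 in place of 2, because of KIF5C, with no filter on low counts, with at least 10 counts in every library and with counts divided by their step. The median log2 fold change of the other kinesins, -0.41, was -0.61 with DESeq2 and -0.64 with no filter. With no filter 1 dynein subunit was called lower. With the threshold stated by the study's methods, an unadjusted p under 0.05 with a change over 2-fold, 2370 genes in place of 3992 were called, 0 transport kinesins were called higher, 0 other kinesins lower, 1 adaptor lower and 0 higher, and 1 dynein subunit higher. With no fold limit, 6 transport kinesins, 1 mitotic partner, 4 adaptors and 5 dynein subunits were called higher and 1 dynein subunit lower. The share of all genes called with no fold limit is not given here, so these counts are not read as a result. Per kilobase the mitotic share was 62.9% in NC and 14.5% in si-EIF5A2.

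Leaving out each library in turn gave 3638 to 3907 genes called and 12 mitotic kinesins lower each time, with a median of -3.13 to -2.89. It gave 1 transport kinesin lower and 3 to 4 higher, with a median of 0.34 to 0.49. Other kinesins called lower numbered 1 to 2, with a median of -0.72 to -0.34. Dynein subunits called lower numbered 0 to 1 and called higher 2 to 3. KIF3A was called without si-EIF5A2 3 (log2 fold change 0.60), and KIF21A without NC 3 (0.74) and without si-EIF5A2 2 (0.69). The replicate numbers did not pair the samples: deviations of same-numbered libraries correlated with r from -0.0244 to 0.0052. With the replicate number as a block, 3731 genes were called, 12 mitotic kinesins were lower with a median of -2.99, and 1 transport kinesin was lower, since the adjusted p of KIF5C was 0.0931 (edgeR).

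Depth limits the scarce members (KIF4B, KIF5C, KIF17, KIF16B and KIF26B), which rest on few fragments, and says nothing firm of the 8 kinesins that were not tested.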
